A study of Mus musculus with 4 samples.

Results

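The mouse Zfp genes encode zinc-finger proteins, and 309 of them carried an m6A peak in the spinal cord among 13558 genes with a peak. They were chosen by name, as the genes of the deposited peak tables whose symbol is Zfp followed by digits alone. Of the 309, 284 had a peak in both the CCI and the sham list, 11 in the CCI list alone and 14 in the sham list alone. The CCI list held 295 of the 309 and 12408 of the 13558 genes, and the sham list 298 and 12907. The RefSeq table of GRCm38.p6 holds 372 genes named in this way, and 308 of the 309 members matched it, 307 of them as protein-coding genes.

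RNA was taken from spinal cord on day 7 after surgery, in C57BL/6J mice that were 6 to 8 weeks old. The CCI group had chronic constriction injury, a model of neuropathic pain, and the sham group had sham surgery. The methods of the paper describe spinal nerve ligation and its sham, and give no procedure for CCI. Methylated RNA immunoprecipitation sequencing (MeRIP-seq) pulls fragments of poly(A) RNA down with an m6A antibody to make the IP library. Untreated fragments of that RNA make the input library. Each group had 1 library of each kind, and how many mice stood behind each is not given in the sources used here. No difference between CCI and sham therefore has a replicate check, and no p-value was computed. All values are the fold enrichment of IP over input given by the authors for each peak, and the files hold no read counts, so the depth is unknown and a fold enrichment carries no error. Intervals are 95% Wilson intervals of shares and cover counting error only.

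Most Zfp proteins bind DNA through rows of classical zinc fingers, short loops in which cysteines and histidines hold a zinc ion. The largest subgroup joins these fingers to a KRAB domain, which recruits Trim28 and, through it, enzymes that silence retrotransposons and imprinted genes. In most KRAB genes the whole array of fingers is encoded by a long last exon that runs on into the 3′-UTR, and the genes lie in clusters that arose by duplication. Other members bind RNA or act in ubiquitin transfer. m6A is a methyl mark on adenosine that affects splicing, translation and decay of mRNA, and it is placed mostly in the core letters GGAC or close relatives, above all around stop codons and in long internal exons.

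The first transcribed bases were the only stretch of these genes for which sequence was used, and those of the members with a peak at the start show the GGAC core in its context. The RefSeq promoter table (GRCm38.p6) held 254 members with 315 start sites. A peak covered at least 1 base of the first 50 transcribed bases at 31 start sites in CCI, at 36 in sham and at 24 in both lists, the last in 21 genes. GGAC, searched on the transcribed strand, was present in 6 of those 24 stretches (25.0%, 12 to 44.9%) and in 44 of the 272 member stretches with a peak in neither list (16.2%, 12.3 to 21.0%). It was present in 18.9% of the first 50 bases of all 32851 RefSeq start sites. The 6 matching stretches follow, 30 bases each and read 5′ to 3′ on the transcribed strand, with GGAC in capitals.
Zfp85 (chr13:67755156-67755185, minus strand): accccgctagacaGGACtctgctctctgtg
Zfp668 (chr7:127876807-127876836, minus strand): acGGACacgcttccggcgctaggttccggg
Zfp219 (chr14:52019675-52019704, minus strand): ggtgaattaggcaGGACccggatccaaggg
Zfp142 (chr1:74587999-74588028, minus strand): cccagtcGGACcatagagatgcagctcccg
Zfp335 (chr2:164911701-164911730, minus strand): gcatgtgacttctagagtcctcctGGACcc
Zfp691 (chr4:119173826-119173855, minus strand): gtcccaacctcatGGACatctctgaaccca

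The 4 letters of the printed core lay inside a peak of the gene at 5 of the 6 sites in CCI and at 5 of the 6 in sham. The exceptions were Zfp142, where the CCI peak began downstream of the core, and Zfp219, where the sham peak did. Over the Zfp85 start the fold enrichment was 14.7 in sham and 16.3 in CCI, and over the Zfp691 start it was 2.75 and 2.47. Zfp219, a DNA-binding protein of the nucleus, stood apart from these, with 5.81 in sham and 2 overlapping CCI peaks of 28.1 and 33.4 over its start. The peak of 28.1 was the mutual partner of the sham peak (log2 ratio 2.27). Its other pairs, in internal exons, had 34.5 in sham and 22.1 in CCI, and 4.29 and 3.21. A match of these letters is a description of the sequence and does not mark a methylated base.

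Zfp genes were spread unevenly over the genome. Chromosome 7 held 84 of the 309 (27.2%), against 7.52% of the other genes with a peak. Chromosome 17 followed with 34 Zfp genes (11% against 4.51%), chromosome 13 with 25 (8.09% against 3.64%) and chromosome 8 with 23 (7.44% against 5.38%). Of the 309, 167 (54.0%) lay within 100 kb of another member. Reads of near-identical neighbours can be split or shared between them, and how the authors treated such reads is not stated, so single values of clustered genes are uncertain. Of the member peaks, 35 in CCI (3.89%) and 36 in sham (3.79%) also lay over the span of a gene on the opposite strand, and it is not stated whether strand was used in calling.

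**Figure D1:**
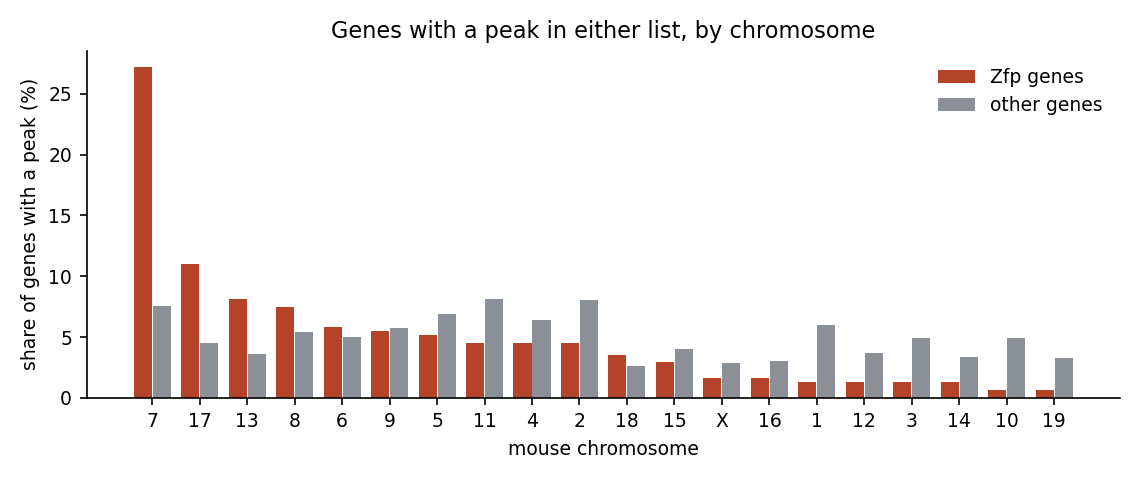
Share of the genes with a peak in either list (y axis, percent) on each mouse chromosome (x axis, ordered by the number of Zfp genes), for the Zfp genes (red) and all other genes (grey). Chromosome 7 holds 27.2% of the Zfp genes and 7.52% of the others.

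The lists held 900 Zfp peaks of 33556 in CCI (2.68%, 2.52 to 2.86%) and 950 of 34406 in sham (2.76%, 2.59 to 2.94%), in 295 and 298 genes. A Zfp gene had a median of 3 peaks in each list, where other genes had 2. Genes with 1 peak were 19.0% of the Zfp genes in CCI (14.9 to 23.9%) and 17.1% in sham (13.3 to 21.8%), against 35.6% and 35.7% of the other genes. Genes with 8 or more peaks were as frequent among Zfp genes (3.73% in CCI, 2.09 to 6.55%) as among the rest (3.30%) within counting error. Some peaks of a list overlapped each other: 65 Zfp peaks in CCI (7.22%) and 70 in sham (7.37%) shared bases with another peak of the same gene, and these repeat part of the same RNA. With each such set counted once, the mean number of peaks per Zfp gene was 2.94 in CCI and 3.07 in sham, against 2.56 and 2.52 in other genes.

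The peaks of Zfp genes lay in the last exon more often than those of other genes. By the annotation of the authors, 250 of the 900 CCI peaks (27.8%, 24.9 to 30.8%) and 258 of the 950 sham peaks (27.2%, 24.4 to 30.1%) fell in the last exon, against 7.68% and 7.80% of the peaks of other genes. The last exon here means a peak assigned to exon k of k and to no UTR, since that annotation puts the UTR first, so a peak across the stop codon counts as 3′-UTR. The share in the 3′-UTR was lower than elsewhere, at 42.2% in CCI (39.0 to 45.5%) and 43.4% in sham against 50.0% and 49.0%. The 5′-UTR held 10.3% and 11.1% of the Zfp peaks and 14.8% and 16.2% of the others. These labels do not always match the place of a peak along the gene. In CCI, a Zfp462 peak labelled 5′-UTR lay between peaks of exon 3 of 13. A Zfp37 peak with that label lay beside the 3′-UTR peak of the gene. How many labels are affected was not counted, here or for the regions named below. Internal exons held 15.6% and 14.4% of the Zfp peaks, and 21.1% and 20.1% of the others.

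**Figure D2:**
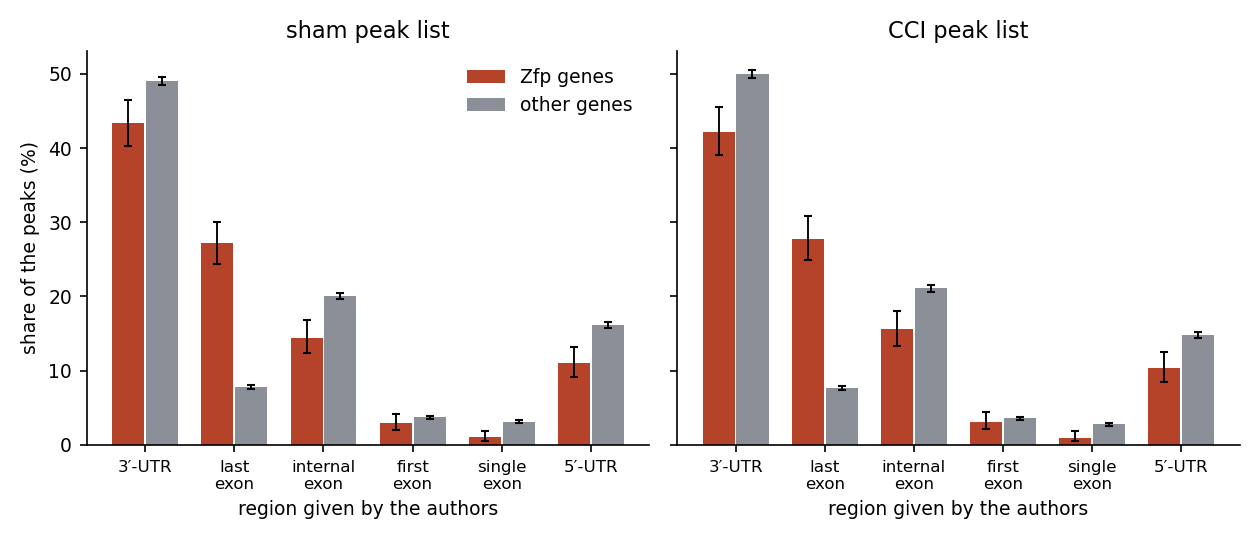
Share of the peaks (y axis, percent) in each region given by the authors (x axis), for Zfp genes (red) and other genes (grey) in the sham and CCI lists. Bars are shares of peaks and error bars are 95% Wilson intervals, which cover counting error only; the last exon holds 27.2% and 27.8% of the Zfp peaks and 7.80% and 7.68% of the others.

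Counted by gene, 150 of 295 Zfp genes had a last-exon peak in CCI (50.8%, 45.2 to 56.5%) and 155 of 298 in sham (52.0%, 46.3 to 57.6%), while 14.6% and 14.7% of other genes had one. The share of genes with a 3′-UTR peak was close in both groups of genes, at 71.5% and 74.8% of the Zfp genes and 74.8% and 73.8% of the others. Zfp transcripts have few exons: the transcript named in the annotation of an exon peak had a median of 5 exons in Zfp genes, and of 9 (CCI) or 8 (sham) in other genes. Among exon peaks of transcripts with 3 to 6 exons, the last exon still took 180 of 248 Zfp peaks in CCI (72.6%, 66.7 to 77.8%) and 188 of 254 in sham (74.0%, 68.3 to 79.0%), against 42.9% and 44.1% elsewhere. Exon length was not used, so its part in this difference was not tested. In the related Zkscan genes, which add a SCAN domain to the fingers, the last exon held 22.2% of 45 CCI peaks and 22.7% of 44 sham peaks. In the Zbtb genes, whose fingers follow a BTB domain, it held 16.9% of 130 and 12.3% of 130. In the 9 Zscan genes it held 23.3% of 30 CCI peaks (11.8 to 40.9%) and 10.3% of 29 sham peaks (3.58 to 26.4%). The intervals of the Zkscan and Zscan shares overlapped those of the Zfp genes in both lists, and those of the Zbtb shares lay below them. Among exon peaks of transcripts with 3 to 6 exons, Zkscan genes had 10 of 14 in the last exon in CCI (71.4%, 45.4 to 88.3%) and 9 of 12 in sham (75%, 46.8 to 91.1%), with intervals that overlap those of the Zfp genes. Zbtb genes had 6 of 19 (31.6%, 15.4 to 54.0%) and 6 of 17 (35.3%, 17.3 to 58.7%), with intervals below those of the Zfp genes. Zscan genes had 6 of 12 in CCI (50%, 25.4 to 74.6%), an interval that overlaps, and 2 of 9 in sham (22.2%, 6.32 to 54.7%), an interval below.

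Zfp292, which encodes a large protein with many fingers, and Zfp628 show this layout and were chosen after their values were seen. All 8 CCI peaks and all 11 sham peaks of Zfp292 lay in exon 8 of 8, with a highest fold enrichment of 15.1 in CCI and 7.79 in sham. Its 8 shared peaks ranged from a log2 ratio of -0.86 to 0.97, so neither list was higher throughout. Zfp628 had the strongest last-exon peak shared by both lists, in exon 3 of 3, with 182 in sham and 135 in CCI.

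A Zfp peak had a median fold enrichment of 6.37 in CCI and 6.17 in sham, where other genes had 5.69 in both lists. By region the medians were 9.64 in CCI and 9.88 in sham in the 5′-UTR, 7.17 and 6.95 in the 3′-UTR, 5.74 and 5.23 in the last exon, 5.70 and 6.58 in first exons (28 peaks a list) and 5.07 and 4.99 in internal exons. In other genes the last-exon peaks had medians of 5.99 and 5.93. The highest peaks belonged to Zfp91, Zfp821 and Zfp326 in CCI, and to Zfp91, Zfp865 and Zfp13 in sham. Zfp91, an atypical ubiquitin ligase, had a 5′-UTR peak of 600 in sham and 270 in CCI, and its other 3 pairs ranged from a log2 ratio of -0.29 to 0.70. The 3′-UTR peak of Zfp821 had the same borders in both lists, with 186 in sham and 246 in CCI. Zfp326, an RNA-binding protein linked to splicing, had a 3′-UTR peak of 55.2 in sham and 200 in CCI. Zfp865 had 274 in sham and 62.8 in CCI over a peak of 2575 and 2605 exonic bases, respectively, and Zfp13 had 215 and 43.1 in its 3′-UTR.

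Most Zfp peaks were present after either surgery. Of the CCI peaks, 798 of 900 (88.7%, 86.4 to 90.6%) shared at least 1 exonic base with a sham peak, which leaves 102 (11.3%) without one, close to the 12.3% among all CCI peaks. Of the sham peaks, 791 of 950 (83.3%, 80.8 to 85.5%) shared a base with a CCI peak, which leaves 159 (16.7%), close to the 16.1% among all sham peaks. Peaks with no counterpart were weak, with a median of 3.35 in CCI and 4.26 in sham, against 6.79 and 6.55 for the rest.

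The strongest peaks with no counterpart were 25.5 in the 3′-UTR of Zfp747, 18.2 in the 3′-UTR of Zfp512 and 18.2 in an internal exon of Zfp939 in CCI. In sham they were 33.7 in the 5′-UTR of Zfp423, 26.7 in the 3′-UTR of Zfp850 and 23.2 in the 5′-UTR of Zfp740. Each of these 6 genes also had a peak shared by the lists. The Zfp423 peak at chr8:87959205-87959415 covered 211 bases, and the CCI list held a different 5′-UTR peak of this gene with a fold enrichment of 1.69. The Zfp740 peak was only 61 bases long.

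To compare CCI with sham, peaks of the lists that were each other's best partner by shared exonic bases were paired, which gave 729 Zfp pairs in 278 genes among 27380 pairs. A further 69 overlapped CCI peaks and 62 overlapped sham peaks of Zfp genes found no mutual partner. The median log2 ratio of CCI over sham fold enrichment was 0.06 (middle range -0.39 to 0.48, SD over pairs 0.80), and 0.03 in other genes. Of the 729 pairs, 339 (46.5%, 42.9 to 50.1%) were lower in CCI, and 47.8% of the pairs of other genes. CCI was at least 2-fold higher in 67 Zfp pairs (9.19%, against 8.59% of all pairs) and at least 2-fold lower in 48 (6.58%, against 7.25% of all pairs). Both shares lie near the background. In whole tissue, a change in the methylated share of an RNA and a change in the mix of cells that hold it cannot be told apart.

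**Figure D3:**
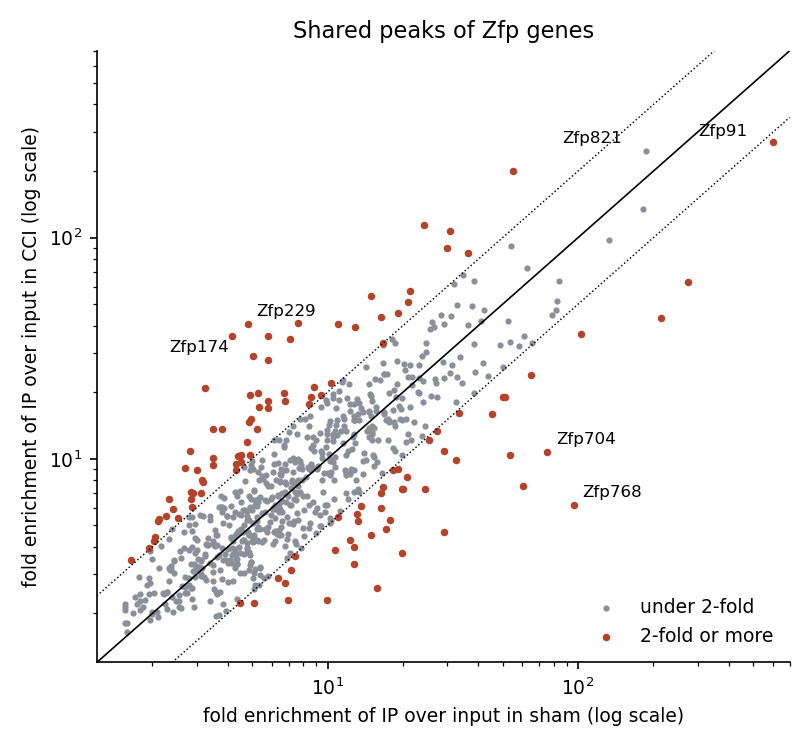
Fold enrichment of IP over input for each of the 729 shared Zfp peaks, in sham (x axis, log scale) and CCI (y axis, log scale). The solid line marks equal values and the dotted lines a 2-fold difference; 67 pairs lie on or above the upper dotted line and 48 on or below the lower one (red).

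By region, the median log2 ratio was 0.09 over 324 Zfp pairs of the 3′-UTR, 0.08 over 193 of the last exon, 0.01 over 116 of internal exons and 0.07 over 70 of the 5′-UTR. In the last exon 23 pairs were at least 2-fold higher in CCI (11.9%, against 10.9% in other genes) and 9 at least 2-fold lower (4.66% against 7.22%). In the 5′-UTR 5 pairs were at least 2-fold higher (7.14% against 10.7%) and 11 at least 2-fold lower (15.7% against 12.8%), while pairs below sham by any amount made up 48.6% of the 70 (37.2 to 60.0%). The 21 first-exon pairs had a median of -0.14, against -0.05 in other genes, and 14 were lower in CCI (66.7%, 45.4 to 82.8%, against 52.6%), of which 3 by at least 2-fold (14.3% against 8.81%). These are counts over pairs of 1 library per group, and genes with several peaks enter more than once.

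The size of a difference moved with the strength and with the borders of a peak. Pairs with a mean fold enrichment under 5 differed by at least 2-fold in 10.1%, those from 5 to 20 in 16.5% and those of 20 or more in 26.8%, and other genes had 6.38%, 20.2% and 29.5%. Where the lengths of a pair differed, the list with the longer peak had the higher value in 378 of 587 Zfp pairs (64.4%), and in 81 of the 102 such pairs (79.4%) with at least a 2-fold difference. In other genes these shares were 69.5% and 79.6%, so they hold for the lists as a whole. The part of the borders in these differences was not tested. Among the 101 pairs with the same borders in both lists, the median log2 ratio was 0.03, 50 were lower in CCI, 2 were at least 2-fold higher and 6 at least 2-fold lower. Pairs with the same borders were not counted in other genes, so whether these counts are particular to Zfp genes is not known.

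Peaks of 1 gene often differed in opposite directions. Of the 122 Zfp genes with 3 or more pairs, 9 had all pairs lower in CCI (7.38%), 15 had all pairs higher (12.3%) and 98 were mixed. Of the 3804 other genes with 3 or more pairs, 8.12% were lower and 10.3% higher in every pair. The range of the log2 ratio within such a Zfp gene had a median of 1.25 (middle range 0.83 to 1.78), and 1.23 in other genes. Among the 278 Zfp genes with a pair, at least 2-fold differences were found in 63 in the higher and 44 in the lower direction, and 9 had both. These counts of genes were not made for other genes, and a gene with several pairs has more chances to enter them. They cannot be set against shares of pairs. By pair, 9.19% of the Zfp pairs were at least 2-fold higher in CCI, against 8.59% of all pairs. At least 2-fold lower were 6.58% of the Zfp pairs, against 7.25% of all pairs. The genes lower in every pair included Zfp536 and Zfp608, and those higher in every pair included Zfp281 and Zfp598.

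The 5 lowest ratios of CCI over sham were in Zfp768, Zfp568, Zfp704, Zfp811 and Zfp52. In Zfp704 the first-exon peak at chr3:9609336-9609546 had the same borders in both lists, with 75.5 in sham and 10.7 in CCI, a log2 ratio of -2.82. The other 6 Zfp704 pairs ranged from -0.74 to 0.56, so the largest difference of the gene was at its first exon. In Zfp811 a last-exon peak of 29.3 in sham faced 4.69 in CCI (log2 ratio -2.64), while a 3′-UTR pair of the same gene had 2.82 in sham and 10.8 in CCI.

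In the other 3 the paired peaks differ widely in their borders. Zfp768 had 1 sham peak of 891 exonic bases with 96.4, and the CCI list split this stretch into peaks of 6.19 and 103, so the paired value (log2 ratio -3.96) compares the sham peak with the weaker part only. Zfp568, a KRAB protein that silences a placental transcript of Igf2, had a sham peak of 60.4 over 599 bases and CCI peaks of 19.8 and 7.56 within it (log2 ratio -3.00 for the second). The Zfp52 pair shared 1 base, with 15.7 in sham and 2.61 in CCI (log2 ratio -2.59). The neighbouring last-exon peak of Zfp52 went the other way, with 7.64 and 41.2.

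The 5 highest ratios were in Zfp174, Zfp229, Zfp850, Zfp72 and Zfp629, in their last exons or 3′-UTRs. Zfp229 had a log2 ratio of 3.08, from 4.80 in sham and 40.7 in CCI, at a peak annotated to the last exon in sham (180 bases) and to the 3′-UTR in CCI (240 bases). A second pair of the gene, in the last exon, had 6.74 and 18.2. Zfp174, a SCAN-type gene, had 4.15 in sham and 36 in CCI (log2 ratio 3.12), over 121 bases in sham and 331 in CCI, and its other pair had 3.49 and 13.6. Both genes were higher in CCI in each of their pairs.

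In Zfp72 a last-exon peak had 5.81 in sham and 36 in CCI (log2 ratio 2.63). Its neighbour had 4.76 and 5.30. Zfp629 had 5.04 and 29.2 in the 3′-UTR (log2 ratio 2.53), but 3 of its 7 pairs, all in the last exon, were lower in CCI, and a further 3′-UTR pair had 27.0 in sham and 22.0 in CCI. Zfp850 had 3.25 in sham and 20.8 in CCI (log2 ratio 2.68) with 61 shared bases, beside the sham peak of 26.7 that had no counterpart.

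Members with a known role in the nervous system, in RNA or in chromatin were taken from a list of 32, of which 30 had a peak, all in both lists. Zfp42, a marker of pluripotent cells, and Zfp410, a regulator of Chd4, had none. The 101 pairs of the list had a median log2 ratio of -0.05, with 4 at least 2-fold higher in CCI (3.96%, against 8.59% of all pairs) and 6 at least 2-fold lower (5.94% against 7.25%).

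Among the members that act on RNA, Zfp36 (tristetraprolin) binds AU-rich elements and speeds the decay of inflammatory mRNAs. Its peak had 9.54 in sham and 10.1 in CCI. Zfp598, the ubiquitin ligase that senses collided ribosomes, had 18.1 in sham and 34.9 in CCI at an internal exon, 6.33 and 6.83 in the 3′-UTR, and 1.84 and 2.14 at another internal exon. Zfp106, an RNA-binding protein needed for motor neuron upkeep, had 7 pairs with log2 ratios from -0.46 to 0.42. Zfp638, a nuclear RNA-binding protein, had 6 pairs from -0.61 to 1.30, the highest of them with 3.18 in sham and 7.82 in CCI. Zfp207, a spindle protein, had weak peaks, with 1.87 in sham and 2.29 in CCI for the shared one.

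Among the members linked to glia, Zfp24 and Zfp488 act in the maturation of oligodendrocytes. Zfp24 had 10.7 in sham and 9.15 in CCI in its 3′-UTR and 4.75 and 4.18 at an internal exon. Zfp488 had 6.84 and 6.4 in its 3′-UTR. Zfp365, which binds Disc1, had 6.77 and 7.09 at the stronger of its internal-exon pairs and 2.56 and 2.14 at the other. The log2 ratios of all 5 pairs of these genes lay between -0.26 and 0.07.

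Zfp110 and Zfp369 are relatives that bind the neurotrophin receptor p75. Zfp110 had 4.33 in sham and 3.71 in CCI in its last exon, and Zfp369 had 4.46 and 3.03. Both were a little lower in CCI, and each list held further peaks of Zfp110 that the other lacked, of 2.48 in CCI and 7.75 in sham. The sham list also held 3 peaks of Zfp369 with no counterpart, from 4.28 to 6.97.

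Zfp536, a brain-enriched repressor of neuronal differentiation, was lower in CCI in all 6 of its pairs. From the 5′ end, its fold enrichments in sham and CCI were 19.8 and 3.75, 8.96 and 4.63, 13.6 and 6.09, and 2.11 and 1.92. The last pairs, which overlap each other, had 17.6 and 14.8, and 17.6 and 14.6. The 5′-UTR peak, with the largest difference, covered 330 exonic bases in sham and 120 in CCI. Zfp608 was also lower in CCI throughout, with 13.1 in sham and 5.62 in CCI, 81.3 and 47.3, and 4.91 and 3.32, all in internal exons. Its relative Zfp609, which works with Nipbl and Integrator in neurons, was mixed over 6 pairs, from -0.30 to 0.64.

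Zfp281, a GC-box repressor of the pluripotency network, was higher in CCI in all 3 pairs. They had 16.8 in sham and 24.2 in CCI, 11.5 and 15.6 in the last exon, and 10.3 and 22.0 in the 3′-UTR. Its close relative Zfp148 differed little, with 18.8 and 19.1 in the 3′-UTR, 6.85 and 7.67, and 2.42 and 2.02. The log2 ratios of Zfp148 ranged from -0.26 to 0.16, and those of Zfp281 from 0.44 to 1.10.

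Zfp462, a large chromatin protein mutated in a neurodevelopmental syndrome, had the most peaks, 16 in CCI and 12 in sham. Most of them lay side by side along exon 3 of 13. Its strongest pairs had 42.1 in sham and 47.0 in CCI in the 3′-UTR, and 25.6 and 38.8 in exon 3, and its 12 pairs ranged from -0.99 to 0.81. Zfp106, Zfp318 and Zfp704 followed with 22 peaks each over both lists, and Zfp142 with 21. With overlapping peaks of a gene counted once, Zfp462 and Zfp318 kept their 28 and 22, while Zfp704 had 9 in CCI and 8 in sham, Zfp142 had 9 and 7, and Zfp106 had 6 and 7. By that count Zfp292 (19), Zfp407 (18) and Zfp618 (18) stood above these 3 genes.

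**Figure D4:**
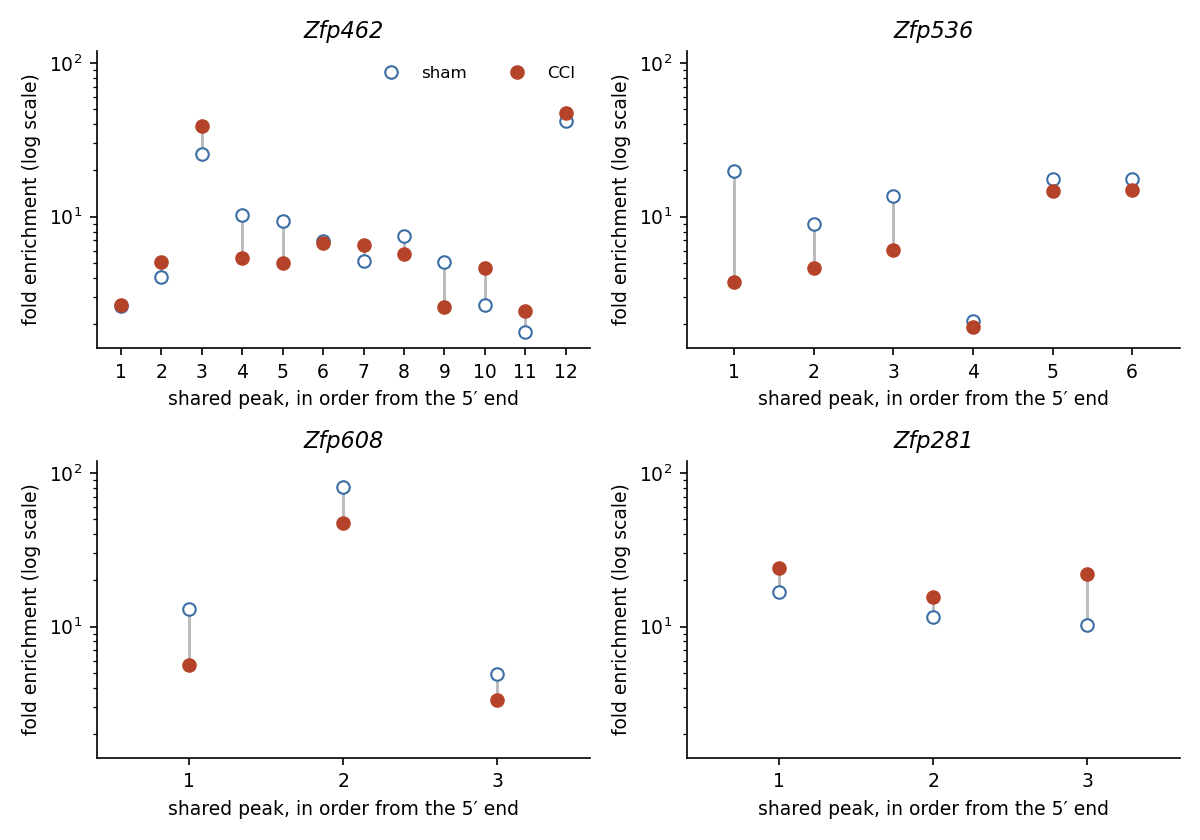
Fold enrichment (y axis, log scale) of each shared peak in order from the 5′ end (x axis) for Zfp462, Zfp536, Zfp608 and Zfp281, with sham as open circles, CCI as filled circles and a grey line joining a pair. Zfp536 and Zfp608 are lower in CCI in all 6 and all 3 pairs, Zfp281 is higher in all 3, and Zfp462 is mixed over 12.

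Other members of neural development were mixed. Zfp423 and Zfp521, partners of the Ebf factors, had 3 pairs each, from -0.12 to 0.25 and from -0.80 to 0.26. Zfp503, a factor of striatal and motor neurons, had 53.4 in sham and 33.7 in CCI in its 3′-UTR, 36.3 and 40.3 beside it, and 10.5 and 12.5 in the 5′-UTR. Its largest difference was a second 5′-UTR pair with 6.97 in sham and 2.29 in CCI (log2 ratio -1.61), over 241 and 61 bases. In Zfp335, which is needed for the growth of neural progenitors, the 6 pairs ranged from -0.84 to 0.22.

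Zfp57 and Zfp809 are KRAB proteins that keep imprints and silence proviruses, respectively. Zfp57 had 82.5 in sham and 51.6 in CCI in the 3′-UTR. Zfp809 had 29.1 and 23.3 at its stronger 3′-UTR peak and 3.09 and 5.56 at the weaker. The general factors Zfp143 and Zfp384 had shared peaks as well. The pairs of Zfp143 had 3.16 in sham and 3.2 in CCI, and 2.70 and 2.93, while Zfp384 had 15.7 and 9.64 in the 5′-UTR and 10.6 and 6.61 in the 3′-UTR, with 5.75 and 6.45 between them.

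Zfp592, Zfp687 and Zfp532 form a complex with the chromatin reader Zmynd8. Zfp687 had 24.1 in sham and 18.0 in CCI at its first exon and 20.9 and 13 in the 5′-UTR. The remaining pair, also in the first exon, had 1.94 and 2.45. Zfp592 had 9.34 and 13.1 in the 3′-UTR, and at internal exons 10.3 and 8.75, and 1.93 and 3.97, the last with a log2 ratio of 1.04. Zfp532 was lower in CCI at both peaks of exon 3 of 6 (9.73 and 5.74, 6.78 and 4.05) and higher at both 3′-UTR peaks (13.1 and 18.6, 4.34 and 6.80). The members of the complex had no direction in common.

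**Figure D5:**
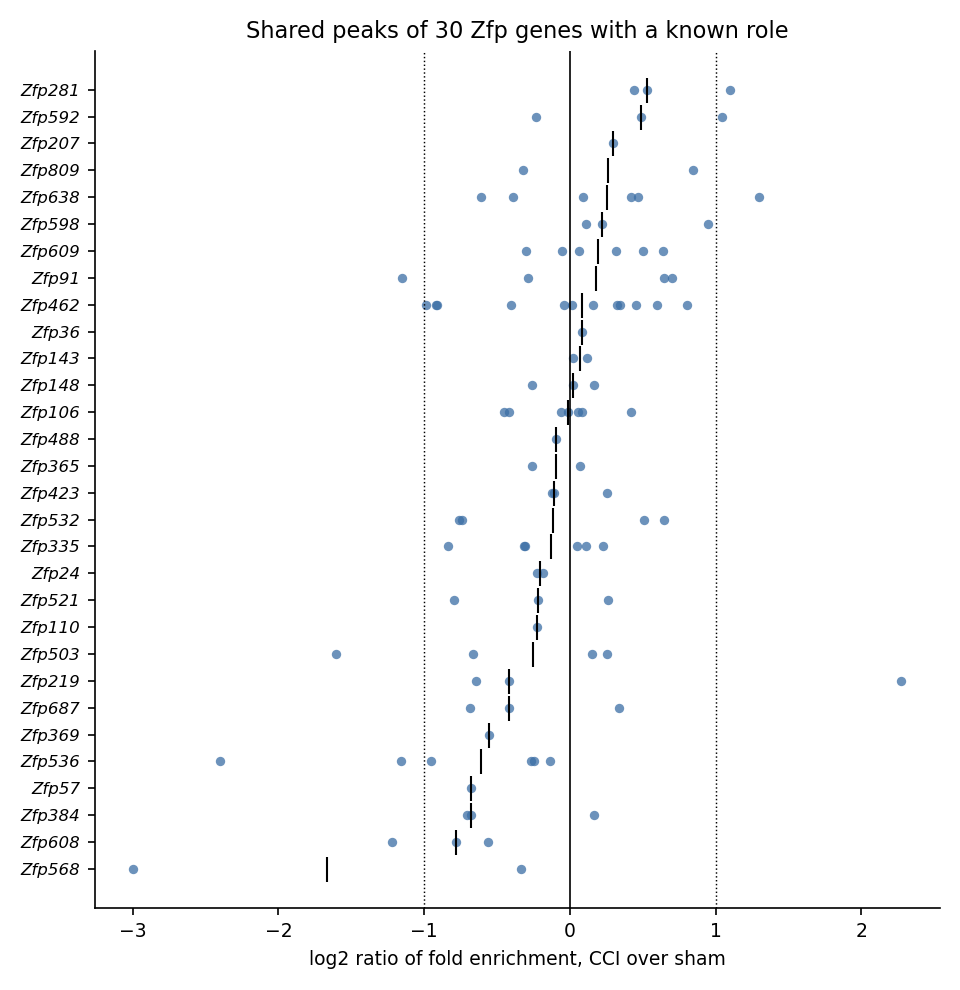
Log2 ratio of CCI over sham fold enrichment (x axis) of every shared peak (points) of the 30 Zfp genes of the role list (y axis), with the median of each gene as a black tick. The dotted lines mark a 2-fold difference; Zfp568 has the lowest point at -3.00 and Zfp219 the highest at 2.27.

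The partners through which KRAB zinc-finger proteins silence chromatin were methylated too. Of 12 partner genes, 11 had a peak in both lists, and Cbx5 had none. Their 32 pairs had a median log2 ratio of 0.20, with 4 at least 2-fold higher in CCI (12.5%, against 8.59% of all pairs) and 1 at least 2-fold lower (3.12% against 7.25%). Trim28, the corepressor that KRAB domains bind, had 4 pairs from -0.34 to 1.66. Setdb1, the methyltransferase of the pathway, held the lower pair, at -3.45, and Atf7ip, which stabilises Setdb1, had 8 pairs from -0.36 to 3.39. The partners ranged over both directions, like the Zfp genes.

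Markers fixed for the tissue were present in both lists: all 6 neuronal and all 6 glial genes had a peak, as did 4 of the 5 Hox genes of the trunk. Of 3 forebrain genes only Neurod6 had a peak, in both lists. A listed peak shows a methylated transcript, and a gene with none may still be expressed.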

How the data were processed

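MeRIP-seq data of mouse spinal cord were used, with 1 IP and 1 input library for CCI and for sham at day 7. The methods of the paper name Cutadapt, bowtie, MACS2 and ChIPseeker, while the processing notes of the submitters name fastp, HISAT2, HOMER, ChIPseeker and GRCm38. The 3 tables have the column names of exomePeak, and each list comes from 1 IP library and its input. Per the paper, libraries were made by a dUTP method that keeps strand.

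Fold enrichments are ratios that the authors computed for each peak from the IP and its input. The deposited p-values come from the authors' comparison of both libraries at a peak. The deposited log10 false discovery rate was read as a score and used only as a filter in an alternative. The table of differential peaks holds the authors' own log2 fold changes and p-values between CCI and sham, which were not used. Its rows were counted only to find members. Of 4812 rows, 80 were of Zfp genes (1.66%, 1.34 to 2.06%), none of them of a gene absent from the lists. This share was below that of Zfp peaks in the CCI list (2.68%) and in the sham list (2.76%).

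Exonic blocks of peaks were compared without strand, 1 shared bp counted as an overlap, and peaks that were mutual best partners by shared over joint bases made a pair. A difference of 2-fold was counted. With 1 library per group there was no test between groups. The depth is unknown. The genes named are 32 with a known role, the 5 with the most peaks, the 5 highest and 5 lowest ratios, and in each list the 3 highest peaks and the 3 highest with no counterpart; Zfp292 and Zfp628 were added after their values were seen. The members and lists were chosen with earlier results of these data known. Of the 309 members, Zfp125 did not match a RefSeq symbol, and the name Zfp935 stood for 2 gene IDs. The RefSeq table was of GRCm38.p6. Alternatives covered the peak filters, the names, the overlap, the centring, the fold, the unit of counting and the borders. Pairing was tested on simulated lists whose peaks lay well apart, and it returned every simulated pair. The simulated lists held no overlapping or split peaks, so the test does not cover such peaks of the real lists. Scripts ran in Python 3.11.15 with pandas 2.3.3, numpy 2.4.6, matplotlib 3.10.9 and scipy 1.17.1.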

Additional observations from a re-analysis of the deposited data

How the results depend on the processing

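Over 18 results, 98 values were computed under 11 alternatives, of which 3 were chosen after seeing the data (pairs with the same borders, exon peaks of transcripts with 3 to 6 exons, and overlapping peaks of a gene counted once). Of these, 86 stayed close to the reported value and 12 moved. With each gene and region counted once, the share of exon peaks was 42.9% in CCI and 40.9% in sham, in place of 47.4% and 45.6%, and that of the 5′-UTR was 14.2% and 15.5%, in place of 10.3% and 11.1%. Among exon peaks of transcripts with 3 to 6 exons the last-exon share was 72.6% in CCI and 74.0% in sham, after 2 limits at once: with exon peaks of all transcripts it was 58.6% and 59.6%. Taking the highest peak of each gene gave a median fold enrichment of 13.3 in CCI and 13.2 in sham. Asking for 50% of the bases of both peaks lowered the shared part to 74.6% of the CCI peaks and 70.0% of the sham peaks. At 1.5-fold, 146 Zfp pairs were higher and 126 lower in CCI, and the share of all pairs at 1.5-fold was not computed. The median log2 ratio stayed between 0.03 and 0.08 under every alternative run. No paired analysis was possible because there is 1 library of each kind in a group. The lists hold no read counts, so weak peaks cannot be judged by depth.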

Other observations

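Among the 11 Zfp genes with a peak in the CCI list alone, the highest fold enrichments were 16.7 in Zfp784, 16.7 in Zfp825 and 15.6 in Zfp787. The peaks of Zfp784 and Zfp787 were overlapped by a sham peak that carried another gene name, so for these the lists differ in the name and not in the presence of a peak. Of the 14 genes in the sham list alone, Zfp429 had 3 peaks with a highest value of 20.9, Zfp296 had 15.1, Zfp595 had 13.9 and Zfp524 had 13.9. Zfp429, Zfp456 and Zfp595 are neighbours on chromosome 13, within 100 kb of another member, and had peaks in the sham list alone. The members on either side of them had peaks in both lists: Zfp458 had 2 in CCI and 4 in sham, and Zfp58 had 1 and 2. The 37 Zfp pairs of chromosome 13 had a median log2 ratio of 0.155. These genes were named after their values were seen, and with 1 library per group no test was possible. How often genes outside the Zfp set were in 1 list alone was not counted. By list, CCI held 12408 and sham 12907 of the 13558 genes with a peak, and 295 and 298 of the 309 Zfp genes.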
